A study of Homo sapiens with 12 samples.

Results

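The pyruvate dehydrogenase system was described here through 10 genes of the 28278 in the count table, taken by symbol. They were the 4 kinases PDK1, PDK2, PDK3 and PDK4, the phosphatases PDP1 and PDP2, and the subunits PDHA1, PDHB, DLAT and PDHX. All 10 had enough counts to be tested in OVCAR3 and in CCL218. PDK1 and PDK3 rose in HCQ-evolved CCL218 cells, by 2.21-fold and 2.37-fold, and had similar fold changes in OVCAR3 that did not pass the threshold. In OVCAR3 they passed in 4 and 3 of 8 other settings. PDK4 was lower in every HCQ-evolved pool of both lines without passing the threshold, and passed in 2 of 8 other settings in OVCAR3 and 1 of 8 in CCL218. EdgeR's test called no subunit or phosphatase in either line, although PDHX in CCL218 passed in 2 other settings.

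Cells of the lines OVCAR3, from an ovarian cancer, and CCL218, from a colorectal cancer, were passaged on 96-well plates with hydroxychloroquine (HCQ), a lysosomotropic antimalarial that disturbs autophagy, or under control conditions. HCQ-evolved cells received 15 pulse-chases of 48 h of drug each and then grew for 7 days without drug before collection, and their labels give passage 15 against passage 19 for control cells. Each plate was pooled by position into a left (L), middle (M) and right (R) pool, giving 3 pools per group and 12 poly(A) RNA libraries. Every group thus came from 1 plate, so p-values measure the spread between pools of a plate, and drug, plate and passage number cannot be told apart. Per the study's methods, the culture medium held added pyruvate in all groups. The comparison asks what remained different in evolved cells once the drug had been washed out. In bulk RNA, fewer cells of a type and less RNA per cell cannot be told apart.

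The pyruvate dehydrogenase complex sits in the mitochondrial matrix and turns pyruvate into acetyl-CoA, the step that joins glycolysis to the citric acid cycle. Its kinases phosphorylate the E1 alpha subunit and switch the complex off, and its phosphatases remove the phosphate and switch it on again. In many tumor cells the kinases are abundant, pyruvate is kept out of the citric acid cycle, and lactate is made from it instead. PDK1 is a known target of the hypoxia-inducible factors, and PDK4 is known for its response to fasting and fatty acids.

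Libraries held 31147822 to 59965861 counts. Across genes, the deviation of a library from the mean of its line was correlated with transcript length, with Spearman coefficients from -0.514 (control CCL218, L) to 0.579 (HCQ-evolved OVCAR3, R). In OVCAR3 the control M (0.548) and HCQ-evolved R pools stood apart in this way from the other 4, at -0.452 to -0.37. Genes of a library are not independent replicates, and the coefficients are descriptions. Of markers for the labelled tissues, SOX17 had 0 counts in every library and KRT20 was at most 0.0669 CPM (the count scaled to library size). CDX2, an intestinal factor, ranged from 21.2 to 71.3 CPM in CCL218 and from 0.804 to 13.7 in OVCAR3, while VIL1, also intestinal, reached 290 CPM in OVCAR3. Among ovarian markers, PAX8 was at 6.41 to 14.9 CPM in both lines, MUC16 was at 13 to 50.1 CPM in OVCAR3 and 3.66 to 14.3 in CCL218, and MSLN at 2.21 to 18.3 in OVCAR3 against a higher 46.5 to 128 in CCL218. These markers did not separate the lines as the labels would, and line names here follow the labels. Of other cell types, PTPRC (leukocytes) and COL1A2 (fibroblasts) were at or near 0, while COL1A1 was at 0.603 to 3.15 CPM and the endothelial PECAM1 at 0.569 to 3.17 CPM.

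PDK1, on chromosome 2 (172555373 to 172608669, plus strand, hg38, GENCODE 44), encodes a kinase that phosphorylates all sites of the E1 alpha subunit. In CCL218 its TMM-normalized CPM in pools L, M and R were 26.2, 45.5 and 39 in control cells and 75.2, 88.2 and 81.5 in HCQ-evolved cells. All HCQ-evolved pools were above all control pools, and the lowest of them was above the highest control by more than the range of the controls. The means were 36.9 ± 9.84 and 81.6 ± 6.49 CPM (SD, n = 3), and PDK1 rose by a log2 fold change of 1.14 (standard error, SE, of 0.21 and an adjusted p of 0.0251 in edgeR). Between 3 and 3 pools an exact permutation test cannot go below p = 0.1, so tests here rest on the fit across all genes. In OVCAR3 the control pools were at 31.9, 49.5 and 43 CPM and the HCQ-evolved pools at 69.3, 81.7 and 109 CPM. These groups did not overlap either, and the R pool was the highest. The log2 fold change of PDK1 in OVCAR3 was 1.08 (SE 0.26, adjusted p = 0.0896), and it did not pass. PDK1 shares 445 exon bases with PDK1-AS1 on the opposite strand, a gene that is not in the count table. Without the strand setting of the counting, some reads of PDK1 could belong to PDK1-AS1.

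PDK3, on chromosome X (24465244 to 24550466, plus strand), encodes the kinase isoform with the highest known activity and the least inhibition by pyruvate. In CCL218 its level was 6.3, 11.6 and 8.41 CPM in control pools and 17.8, 19.9 and 24.7 CPM in HCQ-evolved pools, with no overlap. PDK3 rose from 8.78 ± 2.68 to 20.8 ± 3.57 CPM (SD, n = 3), a log2 fold change of 1.24 (SE 0.25, adjusted p = 0.0323). In OVCAR3 it was at 7.79, 9.93 and 7.3 CPM in control pools against 13.4, 18 and 31.8 CPM. The evolved pools were all higher, but the R pool, the library with the highest length coefficient, stood well above L and M. The log2 fold change was 1.36 (SE 0.35, adjusted p = 0.101) with all pools and 0.92 without that R pool. PDK1 and PDK3 were thus the members with the largest fold changes in both lines.

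The 250 bases before the transcription start of PDK1 and PDK3 are shown because these were the members that rose. They were read from hg38 before the start of the GENCODE canonical transcript (chr2:172555840-172556089 and chrX:24465036-24465285, both on the plus strand). The PDK3 window is the same as that of RefSeq. Capitals mark ACGTG or GCGTG, the core that hypoxia-inducible factors can bind, on either strand.
PDK1: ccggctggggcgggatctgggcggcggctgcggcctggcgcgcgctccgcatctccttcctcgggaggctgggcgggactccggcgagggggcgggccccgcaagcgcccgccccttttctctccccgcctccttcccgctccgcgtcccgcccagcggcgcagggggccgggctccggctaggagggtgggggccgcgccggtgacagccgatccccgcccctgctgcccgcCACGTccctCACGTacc
PDK3: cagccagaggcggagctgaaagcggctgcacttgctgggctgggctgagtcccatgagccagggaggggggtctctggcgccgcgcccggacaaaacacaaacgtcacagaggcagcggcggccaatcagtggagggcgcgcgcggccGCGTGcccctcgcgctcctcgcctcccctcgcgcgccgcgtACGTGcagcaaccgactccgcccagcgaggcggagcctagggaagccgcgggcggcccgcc
PDK1 held 2 matches, starting 17 and 8 bases before its start, and PDK3 held 2, starting 102 and 61 bases before its start. Of 25762 windows of this length, one per gene in the count table with an annotated start, 47.1% held a match and 21.6% held 2 or more. PDK2 held 3 matches and PDK4 held 0, while PDHB, whose level did not pass the test, held 6. RefSeq, on GRCh38.p14, matched 9 members and places the start of PDK1 717 bases further upstream, where the window held 0 matches. A match in these letters is a description of the sequence and does not show binding.

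PDK2, on chromosome 17 (50094737 to 50112152, plus strand), is the widely expressed kinase isoform. In OVCAR3 it was at 31.3, 44.1 and 35.4 CPM in control pools and 31.9, 30.9 and 30.5 CPM in HCQ-evolved pools. The groups overlapped, and the log2 fold change was -0.23 (SE 0.20, adjusted p = 0.618). In CCL218 control pools held 33.8, 44.7 and 40.5 CPM and HCQ-evolved pools 39, 37.4 and 36.3 CPM, again overlapping (log2 fold change -0.08, SE 0.14, adjusted p = 0.742). The evolved pools lay within a narrow range in both lines, at the lower edge of the control range in OVCAR3 and inside it in CCL218. PDK2 shares 2113 exon bases with SAMD14 on the opposite strand, and whether counting used strand is not given in the sources used here, so some of its reads could belong to that gene.

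PDK4, on chromosome 7 (95583499 to 95596516, minus strand), encodes the starvation-responsive isoform and was on the other side of 0 from PDK1 and PDK3. In OVCAR3 it was at 17.1, 21.8 and 19.9 CPM in control pools and 13.1, 14.4 and 13.2 CPM in HCQ-evolved pools. In CCL218 the control pools were at 16.3, 17.1 and 18.6 CPM and the HCQ-evolved pools at 13.6, 14.5 and 13.6 CPM. Every evolved pool was below every control pool in both lines, and the evolved pools of the lines were nearly alike. Its log2 fold changes of -0.52 (SE 0.19, unadjusted p = 0.0242 and adjusted p = 0.217) in OVCAR3 and -0.32 (SE 0.12, unadjusted p = 0.0327 and adjusted p = 0.159) in CCL218 did not pass. With the trend on transcript length and GC content removed from each library they were -0.65 (adjusted p = 0.0254) and -0.45 (adjusted p = 0.0186), and both passed. Removing the trend also raised the number of all genes called lower, from 148 to 457 in OVCAR3 and from 323 to 1185 in CCL218.

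**Figure D1:**
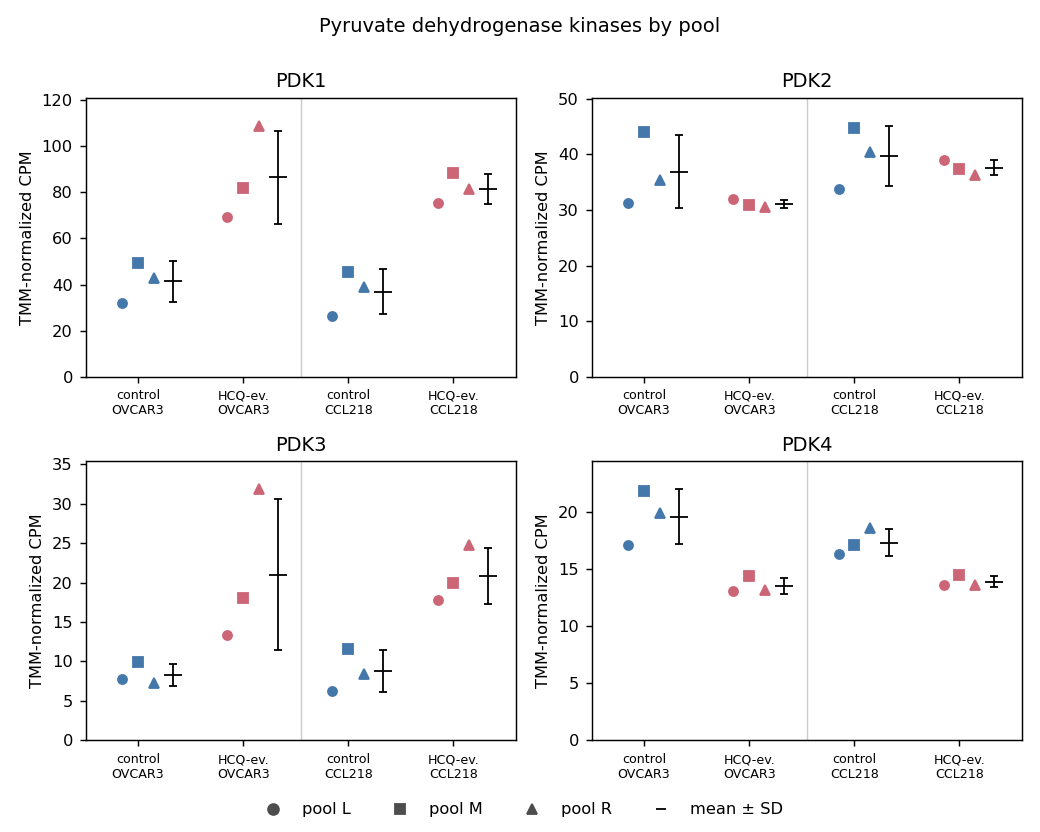
TMM-normalized CPM of PDK1 to PDK4 in each of the 12 pools, by group. Circles, squares and triangles are pools L, M and R, and black bars give the mean and SD of 3 pools. PDK1 and PDK3 are higher in every HCQ-evolved pool of both lines, PDK4 is lower in every one, and the PDK2 groups overlap.

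Kinase levels can be set beside each other only per length, and the order depends on the length taken. In mean CPM per kilobase of the canonical transcript, control CCL218 cells had PDK2 at 11.8, PDK3 at 5.04, PDK4 at 4.81 and PDK1 at 2.62. HCQ-evolved CCL218 cells had PDK3 at 11.9, PDK2 at 11.2, PDK1 at 5.8 and PDK4 at 3.86. Control OVCAR3 cells had PDK2 at 11, PDK4 at 5.45, PDK3 at 4.79 and PDK1 at 2.95, and HCQ-evolved OVCAR3 cells PDK3 at 12.1, PDK2 at 9.25, PDK1 at 6.15 and PDK4 at 3.76. The SD of PDK3 among evolved pools (2.05 in CCL218 and 5.5 in OVCAR3) was larger than its distance to PDK2, so these neighbors did not differ beyond their spread, nor did PDK3 and PDK4 in control cells of either line. PDK3 falls to the last place in every group if the union of its annotated exons (17456 bases, against 1741 in the canonical transcript) is used, with 0.503 in control and 1.19 in HCQ-evolved CCL218 cells. PDK2 was the first of the kinases in control cells of both lines with either length, and PDK1 was above PDK4 after evolution and below it before with either length in both lines. The 2 lengths of PDK1 are close (14072 and 14845 bases), so the order against PDK4 was not tried with a much shorter PDK1 transcript. In CPM not divided by length, PDK1 was above PDK4 in control cells already, at 41.5 against 19.6 in OVCAR3 and 36.9 against 17.3 in CCL218.

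The phosphatases act against the kinases. PDP1, the calcium-stimulated catalytic isoform on chromosome 8, was at 11.6, 16.9 and 14.6 CPM in control OVCAR3 pools and 14.6, 14 and 27.3 CPM in HCQ-evolved OVCAR3 pools. Only the R pool was high, and the log2 fold change of 0.40 (SE 0.32, adjusted p = 0.599) fell to -2.7e-05 without it. In CCL218 PDP1 was at 10.6, 16.1 and 17.2 CPM in control pools and 16.4, 18.8 and 18 CPM in HCQ-evolved pools, with the control L pool apart below (log2 fold change 0.28, SE 0.20, adjusted p = 0.411).

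PDP2, the insulin-responsive isoform on chromosome 16 (positions 66878589 to 66895754 on the plus strand), stood at 10.7, 15.6 and 12.9 CPM in control OVCAR3 pools and 13, 12.9 and 11.1 CPM in HCQ-evolved ones. Its control CCL218 pools were at 11.9, 19.9 and 17 CPM and the HCQ-evolved pools at 16.2, 16.1 and 19.6 CPM. Groups overlapped in both lines, with log2 fold changes of -0.07 (SE 0.21, adjusted p = 0.909) and 0.08 (SE 0.21, adjusted p = 0.82). Neither phosphatase had an unadjusted p under 0.05 in either line.

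PDHA1 and PDHB encode the alpha and beta subunits of E1, the pyruvate-decarboxylating enzyme. PDHA1 (chromosome X, positions 19343893 to 19361718 on the plus strand) stood at 205, 130 and 160 CPM in control OVCAR3 pools and 160, 181 and 128 CPM in HCQ-evolved pools. Its CCL218 pools were at 195, 125 and 139 CPM in control cells and 128, 125 and 125 CPM in evolved cells. The evolved CCL218 pools were nearly equal and sat at the bottom of the control range, since the control L pool was high. Log2 fold changes were -0.06 (SE 0.22, adjusted p = 0.927) in OVCAR3 and -0.28 (SE 0.18, adjusted p = 0.36) in CCL218. PDHA1 shares 956 exon bases with MAP3K15 on the opposite strand.

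PDHB (chromosome 3, positions 58427630 to 58433857 on the minus strand) stood at 78, 57.3 and 80.5 CPM in control OVCAR3 pools and 69.5, 80 and 46.4 CPM in HCQ-evolved pools. Control M and HCQ-evolved R, the pools with length coefficients above 0.5 in this line, were the lowest of their groups, and the canonical PDHB transcript is short at 1507 bases. The log2 fold change was -0.12 (SE 0.25, adjusted p = 0.856). In CCL218 PDHB was at 57.5, 42.1 and 46.8 CPM in control pools and 39.7, 39.9 and 35.4 CPM in evolved pools, all lower (log2 fold change -0.35, SE 0.15, unadjusted p = 0.0553, adjusted p = 0.208). PDHB shares 360 exon bases with an unnamed gene on the opposite strand that is not in the count table.

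DLAT and PDHX form the core of the complex, DLAT as the E2 acetyltransferase and PDHX as the protein that tethers E3. DLAT (chromosome 11, positions 112025408 to 112064404 on the plus strand) stood at 46.6, 78.5 and 68.7 CPM in control OVCAR3 pools and 72.8, 74.4 and 108 CPM in HCQ-evolved pools. In CCL218 it was at 49.3, 82.3 and 84.3 CPM in control pools and 74.4, 83.9 and 83.5 CPM in evolved pools. In each line the control L pool was the lowest of all, and the groups overlapped. Its log2 fold changes were 0.41 (SE 0.27, adjusted p = 0.513) and 0.16 (SE 0.21, adjusted p = 0.66). DLAT shares 1004 exon bases with PIH1D2 on the opposite strand.

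PDHX (chromosome 11, positions 34915829 to 35020591 on the plus strand) stood at 49.9, 41 and 55.4 CPM in control OVCAR3 pools and 52.4, 56.4 and 40.9 CPM in HCQ-evolved pools. As for PDHB, control M and HCQ-evolved R were the lowest, and the log2 fold change was 0.05 (SE 0.20, adjusted p = 0.935). In CCL218 PDHX was at 49.4, 43.2 and 44.5 CPM in control pools and 38.3, 35.1 and 36.6 CPM in evolved pools. All evolved pools were lower, by a log2 fold change of -0.32 (SE 0.12, unadjusted p = 0.0335) that missed the threshold after adjustment (adjusted p = 0.161). It passed with DESeq2's Wald test (adjusted p = 0.0391) and with the length and GC trend removed (adjusted p = 0.0383). In CCL218 these settings called 1068 and 1185 of all genes lower, against 323 in edgeR's test without the change. PDHX shares 152 exon bases with APIP on the opposite strand.

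**Figure D2:**
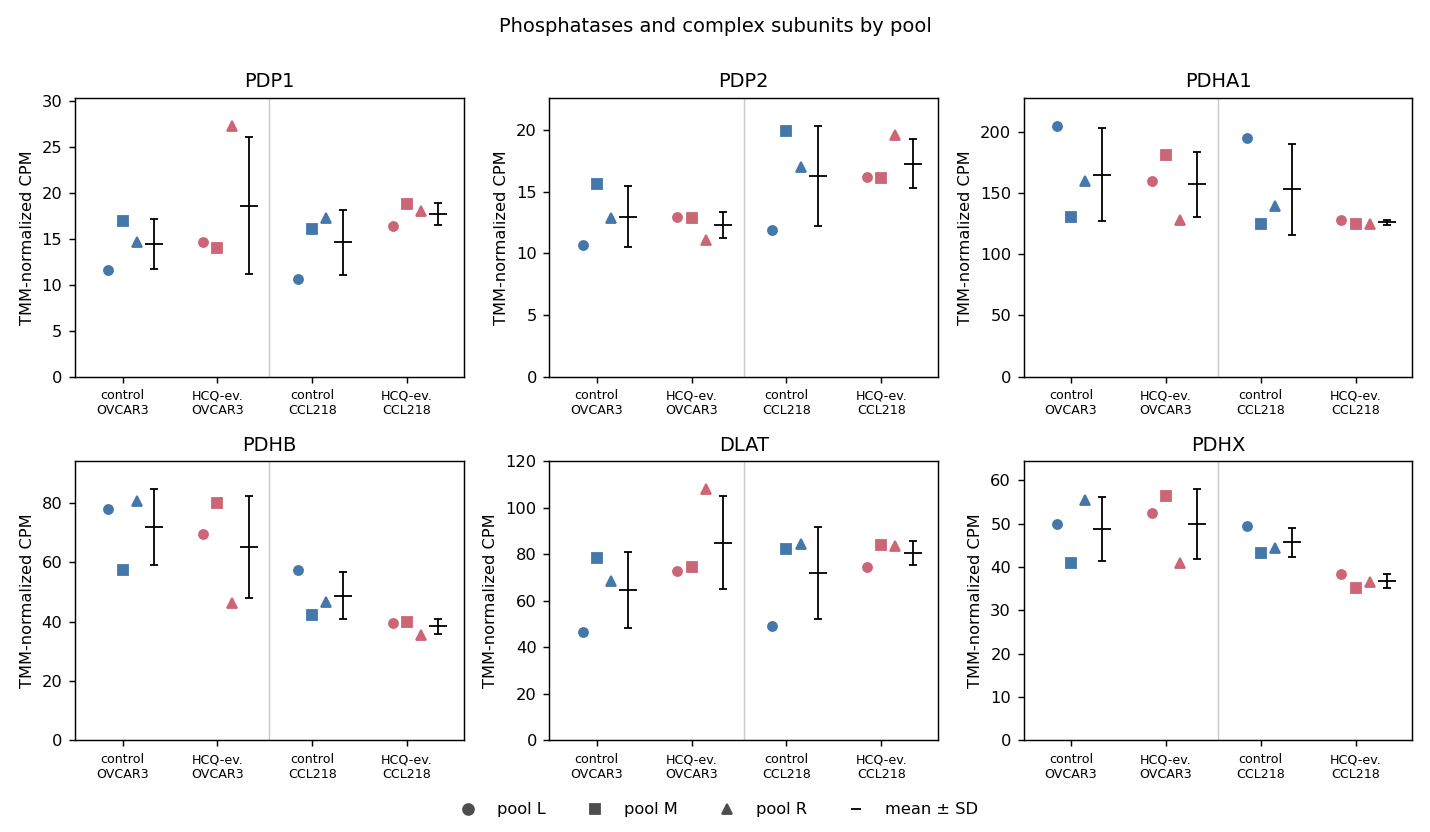
TMM-normalized CPM of the phosphatases PDP1 and PDP2 and the subunits PDHA1, PDHB, DLAT and PDHX in each of the 12 pools, drawn as for the kinases. Groups overlap in every panel for OVCAR3, and in CCL218 PDHB and PDHX lie lower in all 3 HCQ-evolved pools.

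Counted over the members, OVCAR3 had 0 of 10 higher and 0 of 10 lower at an adjusted p under 0.05 in edgeR's test, against 0.647% and 1.21% of the 12204 genes tested. At an unadjusted p under 0.05 there were 3 (PDK1, PDK3 and PDK4), against 16.2% of all genes tested. Limma voom called 0 members, with 106 of all genes tested higher and 187 lower. DESeq2's Wald test called 2 (PDK1 and PDK3), with 542 of all genes tested higher and 563 lower. CCL218 had 2 of 10 higher and 0 of 10 lower, against 3.82% and 2.64% of the 12241 genes tested. There 4 had an unadjusted p under 0.05 (PDK1, PDK3, PDK4 and PDHX), against 25.2% of all genes tested. Of those lower, limma voom called 0 and DESeq2 called 1, PDHX. Over all genes tested in CCL218, limma voom called 537 higher and 362 lower, and DESeq2 1104 higher and 1068 lower. In OVCAR3 every evolved pool was above every control pool for 2 members and below for 1, and 13% and 12.7% of all genes tested were apart in these ways. In CCL218 the counts were 2 above and 3 below, against 18.6% and 17.3%. The median log2 fold change of the kinases was 0.42 in OVCAR3 and 0.53 in CCL218, that of the other 6 members -0.005 and -0.099, and that of all genes tested 0.016 and -0.017.

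**Figure D3:**
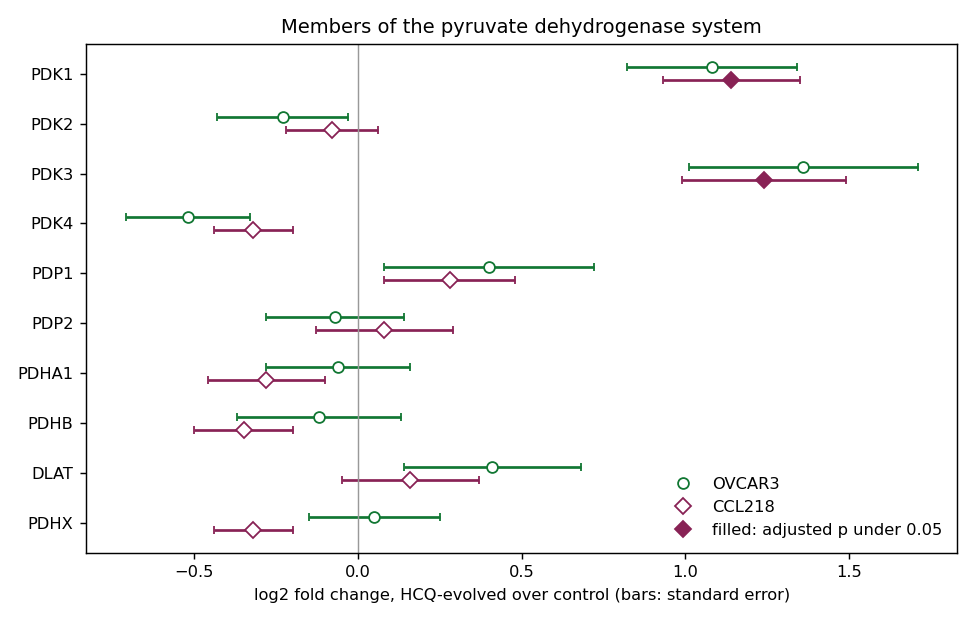
Log2 fold change of each member, HCQ-evolved over control, with its SE from edgeR (circles for OVCAR3, diamonds for CCL218, filled where the adjusted p was under 0.05). PDK1 and PDK3 lie above 1 in both lines and only their CCL218 symbols are filled, PDK4 lies below 0 in both, and the other 7 members lie between -0.35 and 0.41.

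The fold changes of the lines were compared directly as an interaction in 1 fit of all 12 libraries. None of the 10 members differed in edgeR's test, against 0.872% of 12613 genes, and 0 had an unadjusted p under 0.05, while DESeq2 and limma voom also called 0. Differences (CCL218 minus OVCAR3) ran from -0.35 to 0.22 on the log2 scale. For PDK1 the difference was 0.08 (SE 0.34, adjusted p = 0.999), for PDK3 -0.09 (SE 0.44, adjusted p = 0.999) and for PDK4 0.22 (SE 0.19, adjusted p = 0.955). A pass in CCL218 and a miss in OVCAR3 were therefore not shown to be a difference between the lines. Differences well beyond these standard errors could also have been missed. That of PCK2, a gene outside the members, was 0.74 with an SE of 0.19 and did not pass in the same test (adjusted p = 0.12).

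The calls of PDK1 and PDK3 in CCL218 held under 8 of 8 other settings of the analysis, with log2 fold changes of 1.12 to 1.18 and of 1.24 to 1.27. They depended on which pools were kept. PDK1 did not pass when control R (1.18, adjusted p = 0.098) or HCQ-evolved L (1.20, adjusted p = 0.102), M (1.10, adjusted p = 0.153) or R (1.14, adjusted p = 0.122) was left out. PDK3 did not pass without the same pools, with log2 fold changes of 1.21, 1.35, 1.28 and 1.10 and adjusted p of 0.125, 0.103, 0.155 and 0.145. Both passed without control L (PDK1 adjusted p = 0.000307, PDK3 adjusted p = 0.00242) or control M. The number of all genes called higher in CCL218 moved as well, from 468 to between 72 and 112 without one of the 4 pools named, to 296 without control M and to 1646 without control L. In OVCAR3 PDK1 passed in 4 of 8 other settings (adjusted p = 0.00389 to 0.157 over the 8) and PDK3 in 3 of 8 (0.00477 to 0.189).

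**Figure D4:**
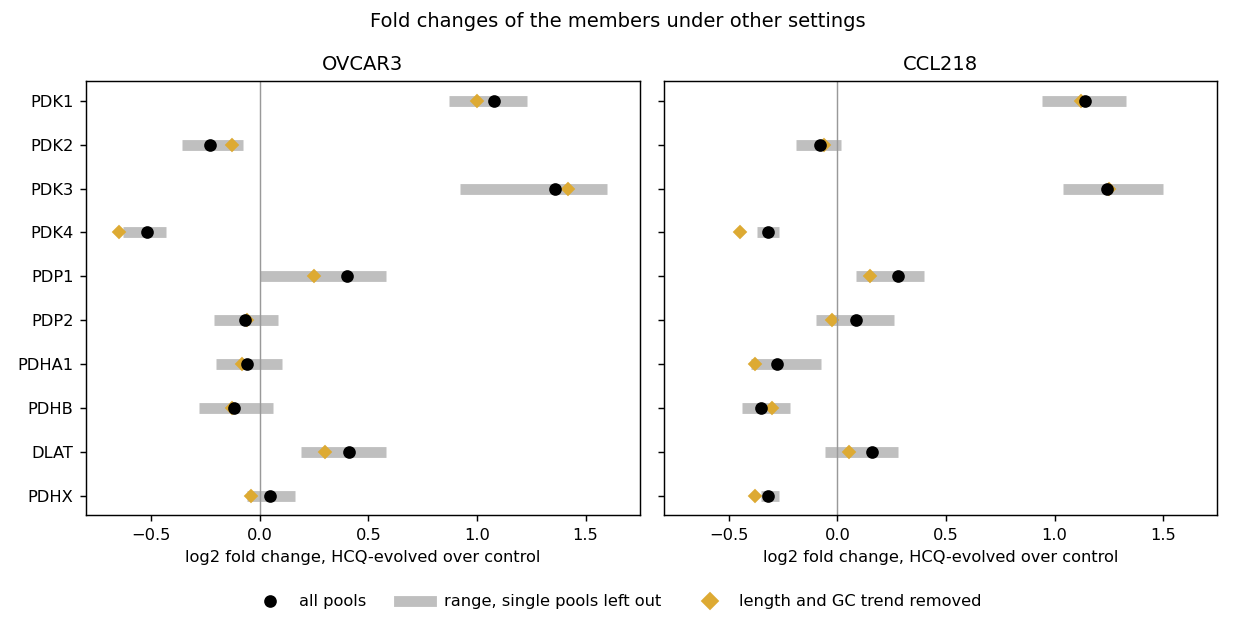
Log2 fold change of each member in OVCAR3 (left) and CCL218 (right) with all pools (black), over the range obtained when single pools were left out (gray bar), and with the length and GC trend removed (yellow). The bars of PDK1 and PDK3 stay at 0.87 or above and those of PDK4 below 0 in both lines, whereas bars of PDP2 cross 0 in both.

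Partners outside the 10 genes did not pass. DLD, the E3 dihydrolipoamide dehydrogenase shared with sister complexes, was at 51.6, 81.3 and 92.4 CPM in control OVCAR3 pools and 109, 121 and 108 CPM in HCQ-evolved ones. The evolved pools were all higher, at a log2 fold change of 0.60 (SE 0.25, adjusted p = 0.289), whereas in CCL218 it was -0.01 (SE 0.25, adjusted p = 0.986) and the pools overlapped. PDPR, the regulatory subunit of the phosphatase, had log2 fold changes of -0.05 (SE 0.39, adjusted p = 0.971) and -0.06 (SE 0.19, adjusted p = 0.851), and near-identical copies in the genome make its counts uncertain. PDHA2, the testis form of E1 alpha, had 0 counts in 11 of 12 libraries and 2 in the other, below a floor of 3 counts, which covers counting error only.

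Beyond the complex, 31 of 37 genes of pyruvate supply, cofactors, sister complexes and other pyruvate fates were tested. In OVCAR3 0 were called by edgeR, against 0.647% higher and 1.21% lower of all genes tested. At an unadjusted p under 0.05 there were 6, against 16.2% of all genes tested. DESeq2 called 2, with 542 higher and 563 lower of the 12204 genes tested, and limma voom 2, with 106 and 187. In CCL218 edgeR called 1 higher and 1 lower of the 31, near the shares of all genes (3.82% and 2.64%). DESeq2 called 4 of them, with 1104 higher and 1068 lower of the 12241 genes tested. Limma voom called 2, with 537 and 362. The one that rose in edgeR's test was LDHA, the lactate dehydrogenase subunit that favors lactate formation from pyruvate. In CCL218 it was at 1077, 1228 and 1109 CPM in control pools and 2235, 2308 and 2022 CPM in evolved pools, without overlap (log2 fold change 0.94, SE 0.13, adjusted p = 0.01). In OVCAR3 LDHA was at 1490, 1579 and 1724 against 3035, 3482 and 3148 CPM, also without overlap, and just missed the threshold (1.03, SE 0.20, adjusted p = 0.0525). It passed in 6 of 8 other settings in OVCAR3, and in CCL218 it missed when control R or any evolved pool was left out (adjusted p = 0.058 to 0.0931). ME1, also listed under other pyruvate fates, was higher in every evolved pool of both lines. Its log2 fold changes of 1.08 (SE 0.22, adjusted p = 0.0583) in OVCAR3 and 0.47 (SE 0.18, adjusted p = 0.166) in CCL218 did not pass in edgeR's test.

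The one that fell was SLC19A2, a plasma membrane carrier of thiamine, from which the E1 cofactor is made. Its CCL218 pools went from 29.1, 37.4 and 33.5 CPM to 20, 20.9 and 23.6 CPM, without overlap (log2 fold change -0.64, SE 0.15, adjusted p = 0.0462). In OVCAR3 the control pools of SLC19A2 were at 33.8, 39.4 and 34.6 CPM and the evolved ones at 23.3, 25.5 and 31.7 CPM, all lower but not past the threshold (-0.40, SE 0.20, adjusted p = 0.375). The CCL218 call was close to the threshold and was lost without scaling factors (adjusted p = 0.0728), without the filter (adjusted p = 0.0682), and when control M or R or any evolved pool was left out (adjusted p = 0.0981 to 0.257).

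In the other lists edgeR's test with these settings called none in either line. The mitochondrial pyruvate carrier had 2 tested subunits, of which MPC1 had the smaller p (CCL218 log2 fold change -0.33, SE 0.26, adjusted p = 0.458). Of 8 genes of lipoate attachment, which DLAT needs for its swinging arm, FDX2 had the smallest p (CCL218, -0.87, SE 0.34, adjusted p = 0.17). All 8 tested genes of the sister 2-oxoacid dehydrogenase complexes lay above 0 in both lines, the lowest at 0.04 in OVCAR3 and 0.05 in CCL218. Of all genes tested, 6299 of 12204 in OVCAR3 and 5916 of 12241 in CCL218 lay above 0. The CCL218 median of the sister genes ran from -0.00 without control L to 0.26 without control M. With all pools the medians of the sister genes were 0.277 in OVCAR3 and 0.132 in CCL218. PPM1K, the phosphatase of the branched-chain complex, came closest to the threshold (CCL218, 0.91, SE 0.22, adjusted p = 0.0531). DESeq2 called 2 genes of the sister complexes in CCL218, with 1104 of all genes tested higher and 1068 lower. Without the filter or with the length and GC trend removed 1 was called. It was not settled whether plate position pairs the CCL218 pools. With a replicate block for plate position, 4 of these pathway genes were called in CCL218 in place of 2. Over all genes the block gave 957 higher and 787 lower in CCL218, in place of 468 and 323. LDHA and SLC19A2 were joined by FDX2 (-0.82, adjusted p = 0.018) and PPM1K (0.91, adjusted p = 0.0297).

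Hypoxia targets were read as context, since PDK1 is among the genes known to answer to hypoxia-inducible factors. Of 16 tested in CCL218, 15 rose and 0 fell, with a median log2 fold change of 1.656, and of 15 tested in OVCAR3, 5 rose and 0 fell, with a median of 1.078. Of all genes tested, 3.82% were called higher and 2.64% lower in CCL218, and 0.647% and 1.21% in OVCAR3. Their medians were -0.017 in CCL218 and 0.016 in OVCAR3. The list of hypoxia targets was chosen with earlier results of these data known. The OVCAR3 count was 11 with DESeq2's Wald test and with the length and GC trend removed, 5 with limma voom and 3 with the replicate block, and it ranged from 0 to 9 with 1 pool left out. Of all genes tested in OVCAR3, these settings called 542, 619, 106 and 17 higher, in the order named. PFKFB4, a regulator of glycolytic flux, rose from 16.3 ± 2.3 to 75.3 ± 6.54 CPM in CCL218 (SD, n = 3, log2 fold change 2.21, adjusted p = 0.00103) and from 24 ± 3.08 to 81.8 ± 2.46 CPM in OVCAR3 (1.78, adjusted p = 0.0101). EGLN3, an oxygen-sensing prolyl hydroxylase, rose by 2.19 (adjusted p = 0.00164) in CCL218 and 1.54 (adjusted p = 0.0101) in OVCAR3. BNIP3L, a mitophagy receptor, rose by 1.27 (adjusted p = 0.00275) and 0.92 (adjusted p = 0.0406). VEGFA, the angiogenic growth factor, rose by 1.54 in CCL218 (adjusted p = 0.00199) and was at 0.74 in OVCAR3 (adjusted p = 0.116).

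The fold changes of PDK1 and PDK3 thus lay below the median of these targets in CCL218 and at or above it in OVCAR3. Counts of the hypoxia targets moved with the pools kept, and in CCL218 were 8 without HCQ-evolved M, 9 without HCQ-evolved R or control R and 10 without HCQ-evolved L. In OVCAR3 they were 0 without control L or control R, 1 without control M or HCQ-evolved M, 3 without HCQ-evolved L and 9 without HCQ-evolved R. The medians stayed at 1.53 to 1.71 in CCL218 and at 1.0 to 1.15 in OVCAR3.

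**Figure D5:**
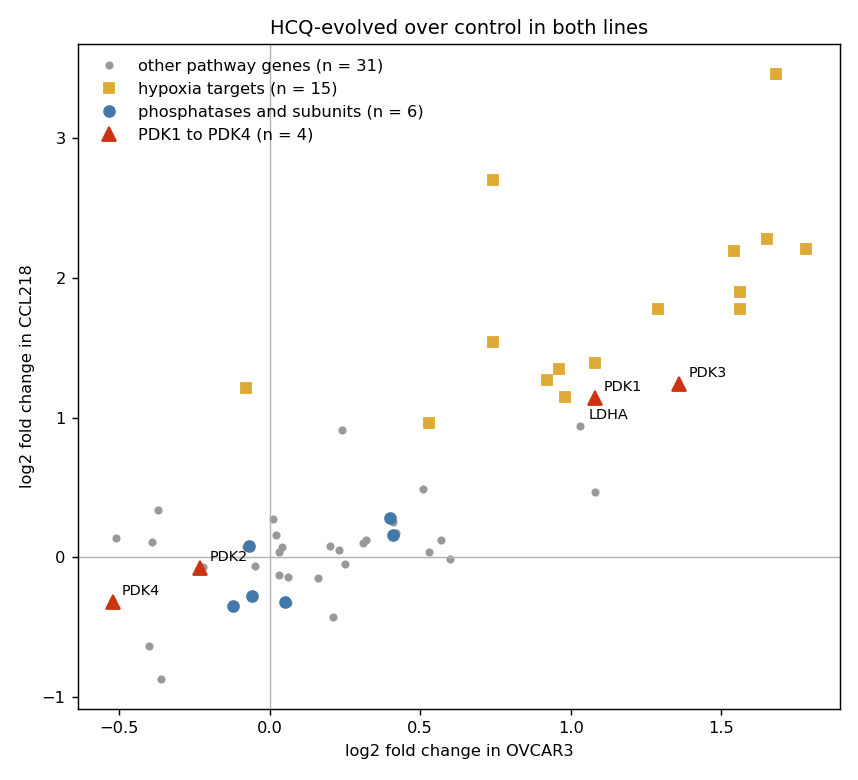
Log2 fold change in OVCAR3 (x axis) against CCL218 (y axis) for the kinases (red triangles), the other 6 members (blue circles), 15 hypoxia targets (yellow squares) and 31 other pathway genes (gray dots). On the CCL218 axis PDK1, PDK3 and LDHA lie at the lower edge of the hypoxia targets, PDK4 lies at -0.52 and -0.32, and the phosphatases and subunits lie near the origin.

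Of transcription factors known to act on kinase genes, 11 were tested in each line and edgeR called 0 in both. At an unadjusted p under 0.05 there were 0 in OVCAR3 and 5 in CCL218, against 16.2% and 25.2% of all genes tested. Limma voom called 0 in both, and DESeq2 called 0 in OVCAR3 and 2 higher and 1 lower in CCL218. Of all 12241 genes tested in CCL218, DESeq2 called 1104 higher and 1068 lower. With the replicate block 4 factors were called in CCL218. The block also called 957 of all genes higher and 787 lower there, against 468 and 323 without it. Higher were the HIF-2 subunit EPAS1 (log2 fold change 1.01, adjusted p = 0.00826), the fatty acid-sensing receptor PPARA (0.94, adjusted p = 0.00681) and FOXO3 (0.55, adjusted p = 0.0363). Lower was ESRRA (-0.51, adjusted p = 0.0363). ESRRA, an orphan nuclear receptor known to act on the PDK4 gene, had the smallest p of the list without the block. It was at 138, 111 and 122 CPM in control CCL218 pools and 96.6, 83 and 82.8 CPM in evolved ones, all lower (log2 fold change -0.51, SE 0.14, adjusted p = 0.0749). HIF1A itself had log2 fold changes of 0.61 (SE 0.73, adjusted p = 0.731) and 0.24 (SE 0.36, adjusted p = 0.694), with overlapping pools in both lines.

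Patterns most like those of the called kinases were sought over all 12 libraries among 11934 other genes, by Pearson correlation of log2 CPM. For PDK1 the first were AMIGO2 (0.986), PGM1 (0.982) and EGLN1 (0.982), and their log2 fold changes were 1.16, 1.23 and 0.98 in OVCAR3 and 1.23, 1.12 and 1.15 in CCL218. For PDK3 they were RBPJ (0.975), ADGRF1 (0.975) and HK2 (0.974), and the fold changes of these genes were smaller than that of PDK3, at 0.43, 0.45 and 0.84 in OVCAR3 and 0.44, 0.57 and 0.90 in CCL218. The 12 points share their groups, and transcript length moves with the libraries, so the coefficients describe these libraries only.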

How the data were processed

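RNA-seq counts per gene were taken as the authors deposited them, for 12 libraries. Per the study's methods and the submitters' processing notes, STAR was used for alignment to hg38, RmDup for taking out duplicates and featureCounts for counting genes. Versions, annotation and strand setting are not given in the sources used here. Removal of duplicates by position can compress the counts of highly expressed genes such as LDHA. All columns belonged to a sample.

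A gene was tested if 3 or more of the 6 libraries of a line reached 1 CPM. HCQ-evolved and control pools were compared within each line by edgeR 4.0.16 in R 4.3.3 (quasi-likelihood F test with TMM scaling, robust, legacy mode), with Benjamini-Hochberg adjustment over all genes tested and a threshold of 0.05. Lines were compared by an interaction in 1 fit of all libraries. Standard errors were the log2 fold change divided by the square root of F. Printed CPM were scaled by TMM over all 12 libraries. The correlation with length and the search for alike patterns used log2(CPM + 0.5). Annotation was GENCODE 44.

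Alternatives were DESeq2 1.42.0 (size factors, Wald test), limma voom 3.58.1, no scaling, no filter, all 12 libraries in one fit for each line, a replicate block for plate position, a spline (4 degrees of freedom) on transcript length and GC content per library, and each pool left out. The scripts were tested on simulated data. Position could pair pools of paired plates. After group means were removed, pools of the same position correlated across genes at 0.577, 0.31 and 0.241 in CCL218, and at 0.452, -0.726 and -0.528 in OVCAR3. In CCL218 pools of unlike position ran from -0.668 to 0.516, and control M with HCQ-evolved R was at 0.516. These correlations do not settle whether position pairs the pools, and the block was kept as an alternative. Printed values come from the fit without the block, and the blocked value stands beside a CCL218 result whose call it changed.

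The members and gene lists were chosen with earlier results of these data known. Named genes are all members, DLD and PDPR, from each pathway list at most 4 called genes by smallest p or else the gene with the smallest p, and the 3 most alike genes of a called kinase. HIF1A, EPAS1, PPARA, FOXO3, PDHA2, PCK2 and ME1 were named after their values were seen. Intervals of counting were not used, since every library held at least 31147822 counts. Exome, single-cell and CRISPR data were not analysed here.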

Additional observations from a re-analysis of the deposited data

Results flagged for a closer look

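PCK2, the mitochondrial phosphoenolpyruvate carboxykinase, stood out because its pools moved in opposite directions in the lines. In OVCAR3 the control pools were at 86.5, 82.5 and 77.2 CPM and the HCQ-evolved pools at 55.8, 66.8 and 64.9 CPM, all lower (log2 fold change -0.37, adjusted p = 0.333 in edgeR's test). In CCL218 the control pools were at 36.3, 33.3 and 37.3 CPM and the HCQ-evolved pools at 49.2, 46.8 and 39.5 CPM, all higher (0.34, adjusted p = 0.177). The difference between the lines, tested as an interaction, was 0.74 (standard error 0.19, unadjusted p = 0.00254, adjusted p = 0.12) and did not pass. It passed with DESeq2's Wald test (0.73, adjusted p = 0.00308), and over the 7 other settings the adjusted p ranged up to 0.469. For this interaction DESeq2 called 306 genes above 0 and 157 below, against 87 and 23 in edgeR's test.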

How the results depend on the processing

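The lowest count of a member in a pool was 256. Members called higher in OVCAR3 went from 0 to 2 without the filter, with DESeq2's Wald test and with all 12 libraries in one fit (PDK1 and PDK3 each time), and to 1 (PDK1) with the length and GC trend removed. Members called lower in OVCAR3 went from 0 to 1 (PDK4) in the fit of all 12 libraries and with the trend removed. In CCL218 members called lower went from 0 to 1 with DESeq2 (PDHX) and to 2 with the trend removed (PDK4 and PDHX). When single pools were left out, members called higher in CCL218 ranged from 0 to 2 and those lower from 0 to 1. The 1 was PDK4 without control L, with an adjusted p of 0.0297. Pathway genes called in OVCAR3 went from 0 to 1 without scaling factors, to 2 without the filter, with DESeq2, with limma voom, in the fit of all 12 libraries and with the trend removed, and ranged from 0 to 2 with single pools left out. Those in CCL218 went from 2 to 1 without scaling factors, to 4 with DESeq2 and to 4 with the replicate block, and ranged from 0 to 5. The block for plate position changed no call of a member (PDK1 1.18, adjusted p = 0.00215, and PDK3 1.27, adjusted p = 0.00338, in CCL218). For all genes called higher and lower it gave 957 and 787 in CCL218 in place of 468 and 323, and 17 and 64 in OVCAR3 in place of 79 and 148. DESeq2's Wald test gave 1104 and 1068 in CCL218 and 542 and 563 in OVCAR3. With the trend removed the counts were 1178 and 1185 in CCL218 and 619 and 457 in OVCAR3. In OVCAR3 the fit of all 12 libraries gave 558 and 607, and the fit without the filter 243 and 306. Across alternatives, 21 of 337 values of members and 15 of 383 of other genes had the opposite sign, none of them called. With a setting changed, these were the PDK3 difference between lines (0.0013 with limma voom and 0.025 with the replicate block), PDP2 in CCL218 (-0.024) and PDHX in OVCAR3 (-0.042) with the trend removed, and DLD in CCL218 (0.018 without the filter, 0.05 with limma voom and 0.05 with the block). With single pools left out, log2 fold changes ranged in OVCAR3 from -2.7e-05 to 0.58 for PDP1, -0.21 to 0.084 for PDP2, -0.20 to 0.10 for PDHA1, -0.28 to 0.063 for PDHB, -0.06 to 0.16 for PDHX, -0.60 to 0.19 for PDPR and -0.19 to 0.30 for MPC1. In CCL218 they ranged from -0.19 to 0.018 for PDK2, -0.10 to 0.26 for PDP2, -0.057 to 0.28 for DLAT, -0.26 to 0.19 for DLD and -0.20 to 0.12 for PDPR. The difference between lines ranged from -0.11 to 0.28 for PDK1 and from -0.34 to 0.33 for PDK3. PDK1 and PDK3 kept a positive and PDK4 a negative log2 fold change in both lines under every alternative run. The cause of these changes was not tested.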
